A study of Mus musculus with 8 samples.

Results

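The genes described here build focal adhesions and the actin cytoskeleton of mouse embryonic stem cells. They are 37 named genes of 22963 with RefSeq transcript values. They were picked by function with earlier results of these data known, so their counts beside those of all genes are not from a blind choice. The set holds 14 genes of the adhesion scaffold, 10 actin and myosin genes, 11 actin regulators, and Vim and Lmna for intermediate filaments and the nuclear lamina. Tropomyosins, calponins and transgelins were left out. The cells were the wild-type male C57BL/6J line Bruce 4, and every group was grown from it. There were 4 groups of 2 libraries, 8 in all: gelatin with Std medium, gelatin with 2i medium, LN511 with Std medium and LN511 with 2i medium. LN511 is laminin-511, a basement membrane protein that integrins bind, and gelatin is denatured collagen. The name 2i usually stands for medium with inhibitors of the kinases MEK and GSK3, while the composition of Std medium is not given in the labels. Cells spent 2 weeks in their condition before RNA was taken. The design text calls the replicates biological. With 1 cell line, p-values measure the spread between these cultures only.

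Focal adhesions are plaques where integrins in the membrane are tied to actin filaments. Talin, kindlin and vinculin make the link, kinases and adaptors such as FAK, Src, p130Cas and paxillin signal from it, and myosin II pulls on the filaments. Alpha-actinin and filamin crosslink actin, the Arp2/3 complex branches it, and ezrin, radixin and moesin tether it to the membrane of the cell cortex.

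Levels are sums of FPKM (fragments scaled for transcript length and library size) over a gene's RefSeq transcripts, non-coding ones included. Judged by the smallest steps between values, depth varied within 1.2-fold among the 8 libraries, and 1 step on a transcript of 2000 bases was 0.19 to 0.22 FPKM. Replicate 1 of gelatin 2i had 1654 assembled transcripts above 0 against 4743 to 5438 in the others. Its RefSeq rows, the only ones used, did not stand apart in number (14125 above 0, against 13820 to 14648). All 8 embryonic stem cell markers with rows were above 1 FPKM in every library, and their summed level was 2376 to 2746. Single markers moved in opposite directions within that sum: in 2i 4 rose and 2 fell on gelatin, and 3 rose and 2 fell on LN511. In bulk RNA, fewer cells of a type and less RNA per cell cannot be told apart. Differences are on the log2(FPKM + 1) scale, which understates changes of low genes, and "rose" or "fell" marks a Benjamini-Hochberg adjusted p under 0.05 in limma over 10278 genes.

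The 37 genes together took 1.06% to 1.45% of the RefSeq FPKM of a library, lowest in gelatin Std and highest in LN511 Std. Actb and Actg1 alone held 39.7% to 44.4% of that sum. Of the 37, 33 could be tested. Tln2 and Acta2 were set aside for values of 0 that may be failed estimates, and Cav1 and Actg2 were below the filter of 1 FPKM in at least 2 libraries. Gelatin Std was the group with the lowest mean for 21 of the 33 tested genes, where it was lowest for 28% of all tested genes. LN511 Std was highest for 15 and LN511 2i for 12, against 29.6% and 25% of all tested genes.

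**Figure D1:**
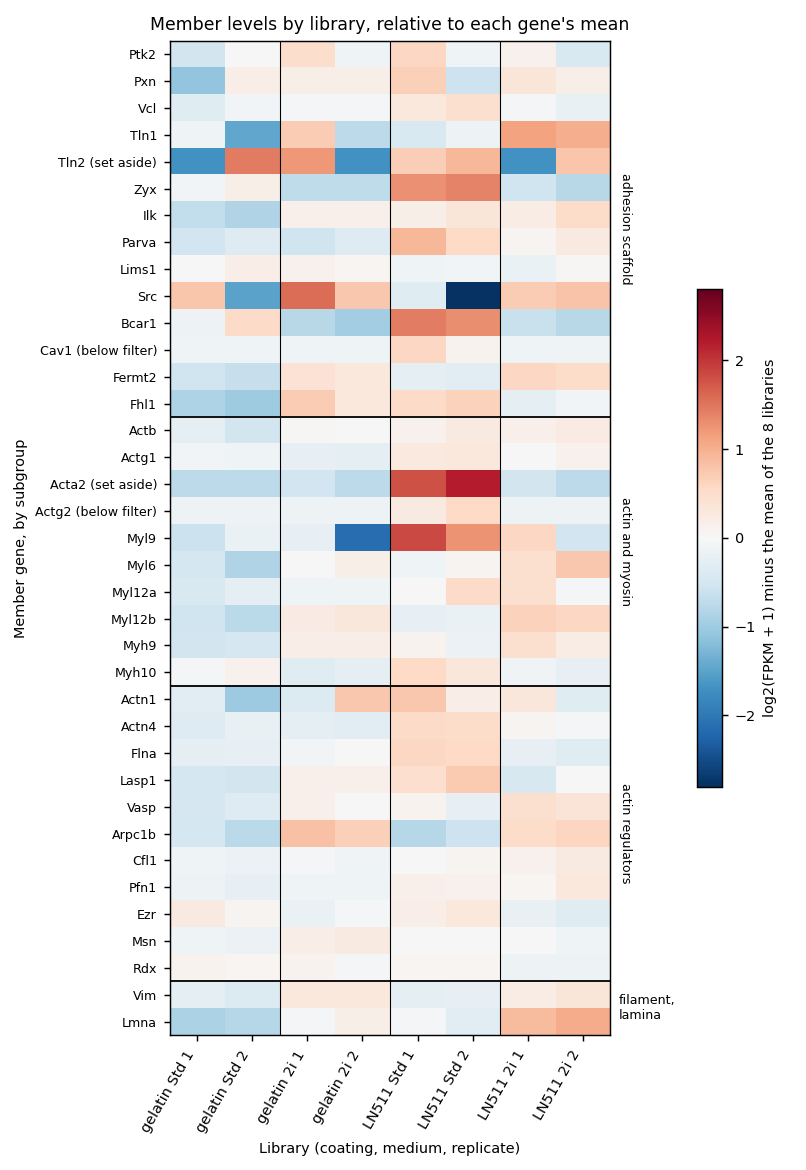
Level of all 37 genes in each of the 8 libraries, as log2(FPKM + 1) minus the gene's own mean over the libraries (red higher, blue lower). Zyx, Bcar1 and Acta2 are red in the LN511 Std columns, Arpc1b is red in all 4 columns of 2i medium, and Src and Tln2 differ between replicates.

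The first comparison asked what 2i medium did on each coating. On gelatin 13 of the 33 genes rose in 2i and 1 fell, where 8.2% of all tested genes rose, 7.2% fell and 15.4% did either. Their median difference was 0.397, against 0.00369 over all tested genes. On LN511 7 rose and 9 fell, where 8.58% of all genes rose, 9.95% fell and 18.5% did either, and the split was 7 and 6 with each library centred on its median. The median there was -0.0528, against -0.0369 over all genes, and turned to 0.0157 with that centring. The 2 comparisons share no library, but limma took the spread for both from all 8 libraries, so their calls are not independent. On both coatings 10 of the genes passed. Arpc1b, Fermt2, Lmna, Myl12b, Myl6, Vasp and Vim were higher in 2i on both, and Bcar1 was lower on both. Fhl1 and Lasp1 were higher on gelatin and lower on LN511. The share of all tested genes that passed on both was not counted, so the 10 cannot be called particular to these genes. When 1 gelatin library was left out, the 14 calls on gelatin became 9 for replicate 1 of the Std pair, 6 for its replicate 2, 6 for replicate 1 of the 2i pair and 5 for its replicate 2. The LN511 count was 9 without LN511 Std replicate 1 and 8 without LN511 Std replicate 2.

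**Figure D2:**
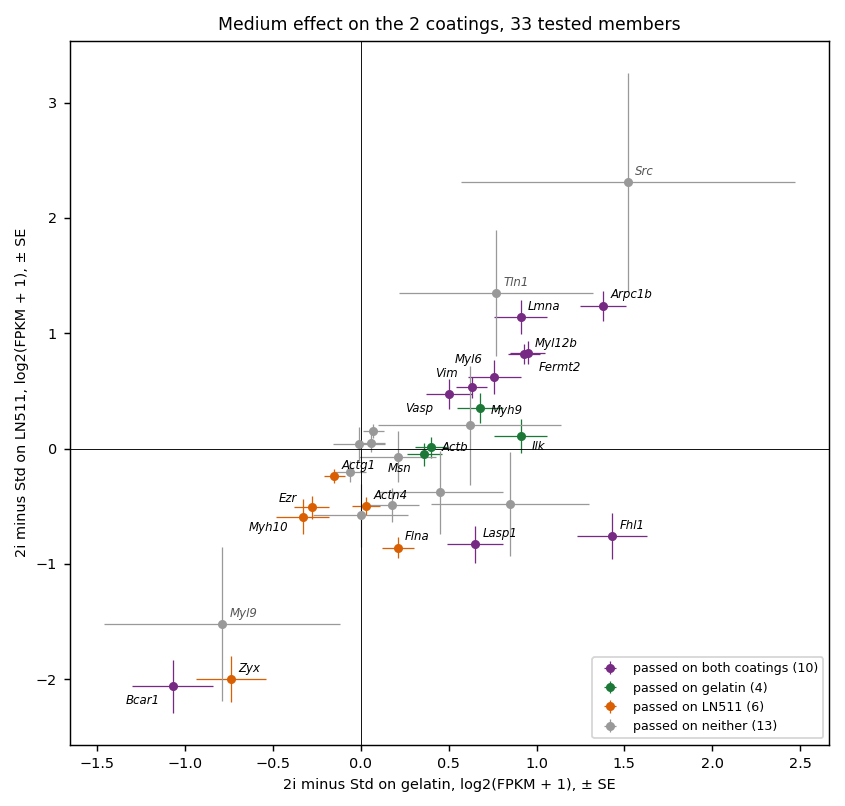
Difference between 2i and Std medium on gelatin (x axis) and on LN511 (y axis) for the 33 tested genes, in log2(FPKM + 1) with standard errors. Colours give the coating on which limma's test passed: 10 genes passed on both, 4 on gelatin alone, 6 on LN511 alone and 13 on neither, and Fhl1 and Lasp1 lie at the lower right with opposite signs.

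The second comparison asked what LN511 did relative to gelatin in each medium. In Std medium 8 genes were higher on LN511 and 0 were lower, where 1.54% of all tested genes were higher, 0.564% lower and 2.1% either. The 8 were Zyx, Ilk, Fhl1, Actb, Actg1, Actn4, Flna and Lasp1. The 33 genes had a median difference of 0.496, against 0.0498 over all genes. Above 0 were 29 of them, and 5687 of all 10278 genes. In 2i medium 0 genes passed in limma, where 0.0195% of all genes did, and 11 of the 33 had an unadjusted p under 0.05, against 11.9% of all genes. Differences there ran from -0.67 for Fhl1 to 1.21 for Myl9. The comparisons in Std medium rest on few libraries: the count of 8 became 0 without gelatin Std replicate 1, LN511 Std replicate 1 or LN511 Std replicate 2, 1 without gelatin Std replicate 2, and 3 without gelatin 2i replicate 1 or replicate 2. LN511 Std serves in this comparison and in the medium comparison on LN511, so a gene that is high in that group appears in both.

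**Figure D3:**
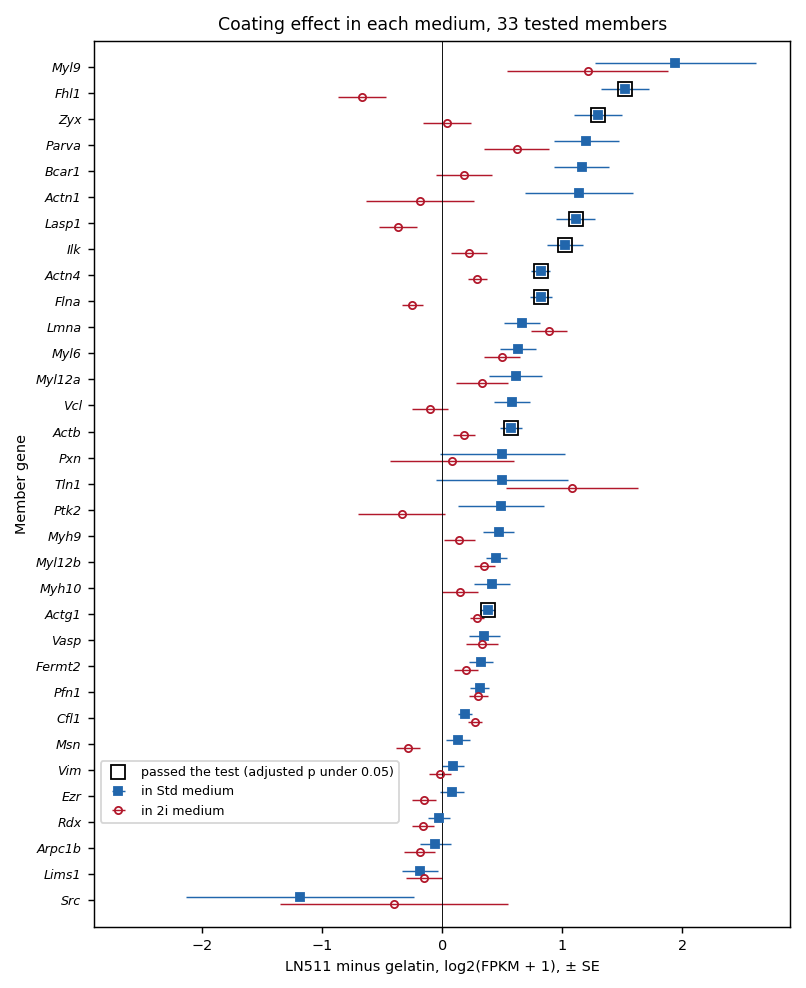
Difference between LN511 and gelatin for the 33 tested genes, in log2(FPKM + 1) with standard errors, in Std medium (squares) and in 2i medium (circles). Frames mark the 8 genes that passed in Std medium, 29 of 33 squares lie to the right of 0, and Fhl1, Lasp1 and Flna have squares to the right and circles to the left of 0.

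The third question was whether the response to 2i differed between coatings. Only Flna passed that test, where 0.185% of all tested genes passed and 0.136% passed in its direction (a lower response on LN511). The interaction was below 0 for 28 of the 33 genes and above 0 for 5, where it was above 0 for 4749 of all 10278 genes. The median was -0.28 against -0.0448 over all genes, and -0.159 against 0.0761 with median centring. Flna did not pass without any 1 of the 8 libraries (adjusted p 0.0694 to 0.195), nor with quantile normalization or median centring.

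**Figure D4:**
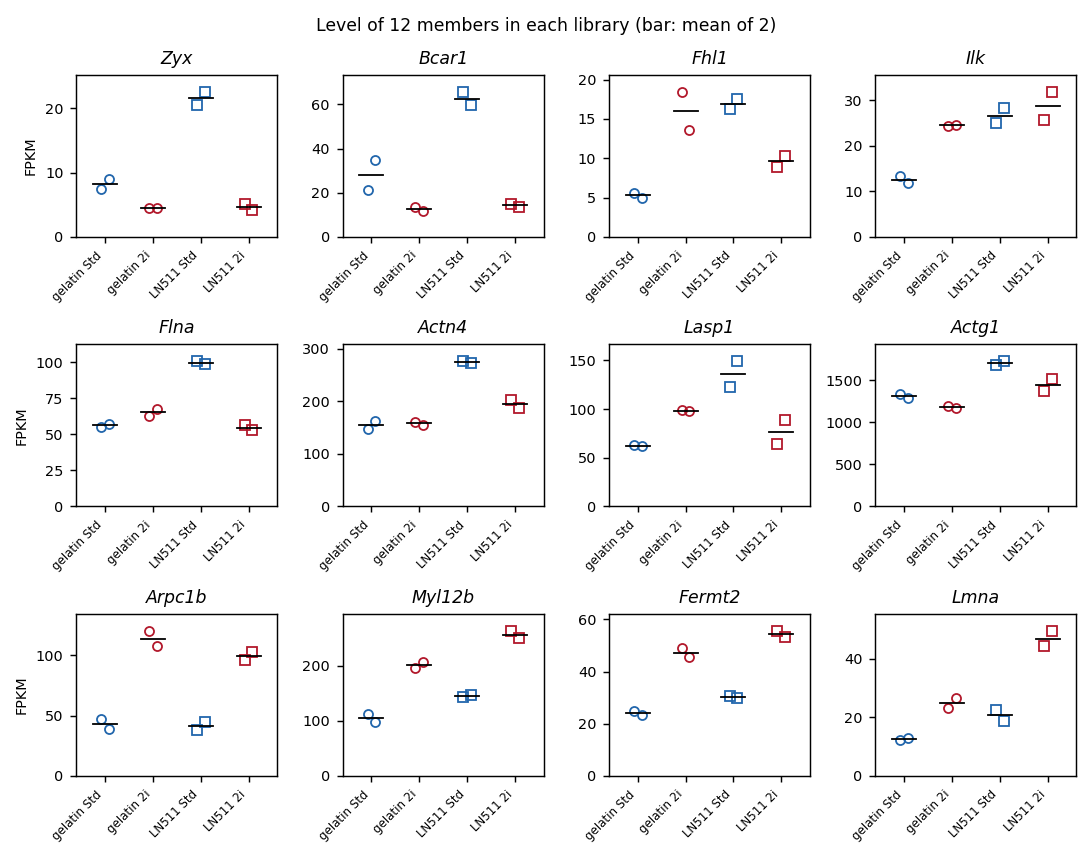
FPKM of 12 of the genes in each library (circles gelatin, squares LN511; blue Std, red 2i; bar, mean of the 2 replicates; y axes start at 0). Zyx, Bcar1, Flna, Actn4 and Actg1 are highest in LN511 Std, Arpc1b, Myl12b and Fermt2 are higher in 2i on both coatings, and Ilk is lowest in gelatin Std.

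Among the scaffold genes, Zyx and Bcar1 were highest in LN511 Std and lower in 2i. Zyx (chr6:42349511-42360213, mm10) encodes zyxin, a LIM protein of mature adhesions and stress fibres. It stood at 7.41 and 8.92 FPKM on gelatin with Std medium, 4.49 and 4.48 in gelatin 2i, 20.5 and 22.5 in LN511 Std, and 5.04 and 4.24 in LN511 2i. Both LN511 Std libraries lay above all others, and the 2i libraries of the coatings overlapped. In limma Zyx rose on LN511 in Std medium by 1.30 (SE 0.20, adjusted p 0.0309) and fell by 2.00 in 2i on LN511 (SE 0.20, adjusted p 0.00126). The first call was lost without 6 of the 8 libraries (adjusted p up to 0.16), and the second held without each. On gelatin the difference between media was -0.74 and missed the threshold (adjusted p 0.0501). The response to 2i differed between coatings by -1.26 (SE 0.28, adjusted p 0.173), which did not pass.

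Bcar1 (chr8:111710474-111743849) encodes p130Cas, a docking protein that Src family kinases phosphorylate. Its level was 21.4 and 35.0 FPKM on gelatin with Std medium, 13.5 and 11.6 in gelatin 2i, 65.6 and 59.5 in LN511 Std, and 15.1 and 13.5 in LN511 2i. The 2i libraries lay below all Std libraries, and LN511 Std lay above the rest. Bcar1 fell in 2i by 1.07 on gelatin (SE 0.23, adjusted p 0.0259) and by 2.06 on LN511 (SE 0.23, adjusted p 0.00213). The call on gelatin was lost without 5 of the 8 libraries (adjusted p up to 0.121). On LN511 it held without each of them. The coating difference in Std medium was 1.16 and did not pass (adjusted p 0.0617).

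Bcar1 has 2 RefSeq transcripts with values, whose start sites on the minus strand are 11673 bases apart and whose proteins of 874 codons differ in their first codons. These are the first coding bases of each, from the GENCODE annotation of GRCm38 (chr8:111743689-111743700 and chr8:111732039-111732050). Capitals mark bases of the downstream form that differ from the upstream form.
Bcar1 upstream start: atgaccgtgccg
Bcar1 downstream start: atgaAGTACcTg
The upstream form (NM_009954) was estimated at 21.4 and 35.0 FPKM on gelatin with Std medium, 11.4 and 4.95 in gelatin 2i, 48.8 and 53.1 in LN511 Std, and 3.49 and 2.91 in LN511 2i. The downstream form (NM_001198839) was listed at 0 in both gelatin Std libraries and stood at 2.08 and 6.61, at 16.9 and 6.40, and at 11.6 and 10.6 in the other groups in the same order. The upstream form was lower in 2i than in Std on both coatings with no overlap. The downstream form was not lower in 2i on gelatin, and its LN511 media overlapped. These are estimates that divide shared reads between forms, and they were not tested.

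Fermt2 and Fhl1 showed other patterns. Fermt2 (chr14:45458792-45530310) encodes kindlin-2, which binds integrin tails beside talin. It stood at 24.7 and 23.2 FPKM on gelatin with Std medium, 49.0 and 45.4 in gelatin 2i, 30.6 and 29.7 in LN511 Std, and 55.5 and 53.1 in LN511 2i. The 4 libraries of 2i lay above the 4 of Std. It rose in 2i by 0.95 on gelatin (SE 0.10, adjusted p 0.00245) and by 0.83 on LN511 (SE 0.10, adjusted p 0.00318), and both calls held in every alternative that could be fitted. Fhl1 (chrX:56731209-56793346), a LIM-only protein of adhesions and muscle, was at 5.58 and 4.96 on gelatin with Std medium, 18.4 and 13.6 in gelatin 2i, 16.2 and 17.6 in LN511 Std, and 8.90 and 10.3 in LN511 2i. Gelatin Std was lowest without overlap, and gelatin 2i overlapped LN511 Std. Fhl1 rose in 2i on gelatin by 1.43 (SE 0.20, adjusted p 0.00611), fell in 2i on LN511 by 0.76 (SE 0.20, adjusted p 0.0448) and rose on LN511 in Std medium by 1.52 (SE 0.20, adjusted p 0.0211). The fall on LN511 was lost without 6 of the 8 libraries (adjusted p up to 0.177) and the coating call without any 1 of the 4 Std libraries (adjusted p up to 0.129). The difference between these media responses was -2.18 (SE 0.29, adjusted p 0.054) and missed the threshold.

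Ilk (chr7:105736590-105742925) encodes integrin-linked kinase, the pseudokinase that forms a complex with PINCH and parvin. Its level was 13.4 and 11.9 FPKM on gelatin with Std medium, 24.4 and 24.6 in gelatin 2i, 24.9 and 28.3 in LN511 Std, and 25.7 and 31.9 in LN511 2i. Gelatin Std was lowest without overlap, and the LN511 groups overlapped. Ilk rose by 0.91 in 2i on gelatin (SE 0.15, adjusted p 0.0113) and by 1.02 on LN511 in Std medium (SE 0.15, adjusted p 0.0303). The first call was lost without gelatin Std replicate 2 or either gelatin 2i library (adjusted p up to 0.0616), and the second without any 1 of the 6 gelatin and LN511 Std libraries (adjusted p up to 0.146). On LN511 the media differed by 0.11 (SE 0.15, adjusted p 0.684). Its partners Lims1 (PINCH-1) and Parva (alpha-parvin) passed in no comparison. Parva was low, at 0.966 and 1.22 FPKM on gelatin with Std medium, 0.955 and 1.22 in gelatin 2i, 4.45 and 3.21 in LN511 Std, and 2.02 and 2.38 in LN511 2i. Its LN511 libraries all lay above its gelatin libraries, and the difference in Std medium was 1.20 (SE 0.27, adjusted p 0.0908).

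The other scaffold genes did not pass in any comparison. Ptk2 (focal adhesion kinase), Pxn (paxillin), Vcl (vinculin) and Lims1 had group means between 7.28 and 26.5 FPKM, and Vcl differed between coatings in Std medium by 0.58 (adjusted p 0.127). Pxn varied between replicates, at 3.78 and 10.8 FPKM on gelatin with Std medium and 15.3 and 5.89 in LN511 Std (SE of its differences 0.52). Tln1 (talin-1) and Src also varied widely between replicates. Tln1 was at 18.2 and 6.63 FPKM on gelatin with Std medium, 32.8 and 11.6 in gelatin 2i, 14.5 and 17.9 in LN511 Std, and 44.4 and 41.0 in LN511 2i, and LN511 2i lay above the other groups. Src was at 10.8 and 1.40, at 19.1 and 10.5, at 4.40 and 0, and at 10.1 and 10.9 in that order. Its groups overlapped except LN511 Std against those of 2i. The standard errors for Tln1 and Src were 0.55 and 0.95, and their differences of 1.35 and 2.31 between media on LN511 did not pass in limma (adjusted p 0.142 and 0.148). Tln2 (talin-2) was listed at 0 in 1 library of gelatin Std, of gelatin 2i and of LN511 2i, with values of 4.23 to 7.91 FPKM elsewhere. Cav1, the caveolin-1 of membrane pits, was at 0.605 and 0.149 FPKM in LN511 Std and listed at 0 in the other 6 libraries.

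The cytoplasmic actins were the most abundant of these genes per length. Actb, beta-actin, was at 974 and 827 FPKM on gelatin with Std medium, 1206 and 1157 in gelatin 2i, 1275 and 1391 in LN511 Std, and 1303 and 1380 in LN511 2i. Gelatin Std was lowest, and the LN511 groups overlapped. Actg1, gamma-actin, was at 1330 and 1281, at 1197 and 1163, at 1677 and 1720, and at 1374 and 1514 in the same order. Here gelatin 2i was lowest and LN511 Std highest, without overlap. In Std medium Actb was higher on LN511 by 0.57 (SE 0.09, adjusted p 0.0349) and Actg1 by 0.38 (SE 0.06, adjusted p 0.0365). In 2i on gelatin Actb rose by 0.40 (SE 0.09, adjusted p 0.0309), while Actg1 differed by -0.15 (adjusted p 0.172). In 2i on LN511 Actg1 fell by 0.24 (SE 0.06, adjusted p 0.0431), and Actb differed by 0.01 (adjusted p 0.959). The ratio of Actb to Actg1 was 0.732 and 0.645 on gelatin with Std medium, 1.008 and 0.995 in gelatin 2i, 0.761 and 0.808 in LN511 Std, and 0.948 and 0.911 in LN511 2i. It was higher in all libraries of 2i than in those of Std, a description with no test. Each of the 4 actin calls was lost without 5 to 7 of the 8 libraries (highest adjusted p 0.139 to 0.189).

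The values of near-identical genes are uncertain where the counting had to divide reads between them, and the actins also have processed pseudogenes. Over 1125 coding bases Actb and Actg1 were 88.6% identical, with a longest shared run of 62 bases. Over 516 coding bases Myl12a and Myl12b, the regulatory light chains of non-muscle myosin II, were 96.5% identical with a longest shared run of 102 bases, and Myl9 was 85.7% and 86.4% identical to them. The first 48 coding bases show how closely they match. They come from the GENCODE annotation of GRCm38 (chr5:142905639-142905686, chr11:120348044-120348091, chr17:70977184-70977231 and chr17:70996833-70996880 on the minus strand, chr2:156778545-156778592 on the plus strand). Capitals mark bases that differ from Actb in the actins and from Myl12b in the light chains.
Actb: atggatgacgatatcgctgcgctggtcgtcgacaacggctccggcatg
Actg1: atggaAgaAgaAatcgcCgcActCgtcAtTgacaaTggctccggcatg
Myl12b: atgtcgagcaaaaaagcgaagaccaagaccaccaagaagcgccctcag
Myl12a: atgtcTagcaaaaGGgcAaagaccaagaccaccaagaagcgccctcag
Myl9: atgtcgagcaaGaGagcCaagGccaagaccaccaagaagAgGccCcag

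The smooth muscle actins had their highest values in LN511 Std and were mostly listed at 0 elsewhere, where a 0 may be a failed estimate. Acta2, alpha smooth muscle actin, was at 4.75 and 6.63 FPKM in LN511 Std, at 0.156 and 0.165 in 1 library of gelatin 2i and of LN511 2i, and listed at 0 in the other 4. Actg2, gamma smooth muscle actin, was at 0.319 and 0.626 in LN511 Std and listed at 0 elsewhere. No fold is given against groups listed at 0. The summed level of 7 smooth muscle markers with rows was 16.5 to 17.8 FPKM in LN511 Std and 7.98 to 13.0 in the other groups, led by Smtn. Myh11, the smooth muscle myosin, was at 0 to 0.219 in every library. The part of such cells in the Acta2 values was not tested.

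Myosin II light and heavy chains rose in 2i in part. Myl12b was at 113 and 98.4 FPKM on gelatin with Std medium, 195 and 208 in gelatin 2i, 143 and 146 in LN511 Std, and 263 and 250 in LN511 2i. No groups overlapped, and 2i was above Std on each coating. It rose in 2i by 0.93 on gelatin (SE 0.09, adjusted p 0.00133) and by 0.82 on LN511 (SE 0.09, adjusted p 0.00169), with both calls kept in every alternative that could be fitted. Its near-identical neighbour Myl12a was at 93.7 and 106, at 116 and 116, at 126 and 184, and at 174 and 122 in the same order, and passed in no comparison. Myl6, the essential light chain, was at 378 and 297, 535 and 598, 486 and 557, and 720 and 894 FPKM. It was lowest in gelatin Std and highest in LN511 2i. Myl6 rose in 2i by 0.76 on gelatin (SE 0.15, adjusted p 0.0214) and by 0.62 on LN511 (SE 0.15, adjusted p 0.0343), calls that were lost without 3 and 5 of the 8 libraries (adjusted p up to 0.111 and 0.164).

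Of the heavy chains, Myh9 passed on gelatin and Myh10 on LN511, and their difference was not tested. Myh9, heavy chain IIA, was at 42.9 and 43.9 FPKM on gelatin with Std medium, 70.2 and 69.7 in gelatin 2i, 66.3 and 55.0 in LN511 Std, and 84.0 and 71.4 in LN511 2i. It was lowest in gelatin Std and rose there in 2i by 0.68 (SE 0.13, adjusted p 0.0152), a call that was lost without any 1 of the 4 gelatin libraries (adjusted p up to 0.0781). On LN511 the media differed by 0.35 (SE 0.13, adjusted p 0.1). Myh10, heavy chain IIB, was at 20.3 and 23.0, at 16.6 and 17.3, at 31.8 and 26.5, and at 19.9 and 18.0 in that order. LN511 Std was highest without overlap. Myh10 fell in 2i on LN511 by 0.59 (SE 0.15, adjusted p 0.0365), a call that was lost without any 1 of the 8 libraries (adjusted p 0.0505 to 0.165). Myl9, the light chain of smooth muscle and non-muscle myosin, was at 1.90 and 2.89, at 2.77 and 0, at 14.8 and 9.54, and at 5.63 and 2.06. It too was highest in LN511 Std without overlap, but the difference from gelatin in Std medium, 1.94 (SE 0.67, adjusted p 0.227), did not pass.

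The crosslinkers Flna and Actn4 and the adaptor Lasp1 were highest in LN511 Std. Flna (chrX:74223461-74249854) encodes filamin A, which crosslinks actin into networks and binds integrin tails. It was at 55.4 and 57.1 FPKM on gelatin with Std medium, 63.0 and 67.6 in gelatin 2i, 101 and 99.1 in LN511 Std, and 56.6 and 52.8 in LN511 2i. LN511 Std stood above all other libraries, and LN511 2i overlapped gelatin Std. Flna rose on LN511 in Std medium by 0.82 (SE 0.09, adjusted p 0.0103) and fell in 2i on LN511 by 0.86 (SE 0.09, adjusted p 0.00147). The first call was lost without any 1 of the 4 Std libraries (adjusted p up to 0.0826), and the second held without each of the 8. On gelatin the media differed by 0.21 (SE 0.09, adjusted p 0.165). The interaction was -1.07 (SE 0.12, adjusted p 0.0422).

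Actn4 (chr7:28893248-28962351), alpha-actinin-4, was at 147 and 163 FPKM on gelatin with Std medium, 160 and 155 in gelatin 2i, 275 and 272 in LN511 Std, and 201 and 186 in LN511 2i. The gelatin groups overlapped, LN511 2i lay above them and LN511 Std above all. It rose on LN511 in Std medium by 0.82 (SE 0.08, adjusted p 0.00865) and fell in 2i on LN511 by 0.50 (SE 0.08, adjusted p 0.00848). On gelatin the media differed by 0.03 (SE 0.08, adjusted p 0.852), and the interaction of -0.53 did not pass (adjusted p 0.164). The fall on LN511 was lost without LN511 Std replicate 1 (adjusted p 0.0533), and the coating call without gelatin Std replicate 1 or either LN511 Std library (adjusted p up to 0.0746). Lasp1 (chr11:97799005-97838765), a LIM and SH3 protein of adhesions and the actin cortex, was at 62.7 and 61.6, 98.7 and 97.7, 123 and 149, and 64.4 and 88.7 FPKM. Gelatin Std was lowest and LN511 Std highest, without overlap. Lasp1 rose by 0.65 in 2i on gelatin (SE 0.16, adjusted p 0.0404), fell by 0.83 in 2i on LN511 (SE 0.16, adjusted p 0.0165) and rose by 1.11 on LN511 in Std medium (SE 0.16, adjusted p 0.0276). The rise on gelatin was lost without 6 of the 8 libraries (adjusted p up to 0.148) and the fall on LN511 without LN511 Std replicate 2 (adjusted p 0.0909). The coating call was lost without 6 of the 8 (adjusted p up to 0.138), and the interaction of -1.48 did not pass (adjusted p 0.0833). Actn1, alpha-actinin-1, ranged from 13.0 to 47.2 FPKM with replicates as far apart as 20.7 and 47.0 in gelatin 2i, and it passed in no comparison.

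Of the 33 tested genes Arpc1b had the largest rise among those that passed in 2i on LN511. Arpc1b (chr5:145114256-145128186) encodes a subunit of the Arp2/3 complex. Its level was 47.3 and 39.3 FPKM on gelatin with Std medium, 120 and 107 in gelatin 2i, 38.3 and 44.8 in LN511 Std, and 95.8 and 102 in LN511 2i. The libraries of 2i lay far above those of Std, and the coatings overlapped in Std medium. It rose in 2i by 1.38 on gelatin (SE 0.13, adjusted p 0.00146) and by 1.24 on LN511 (SE 0.13, adjusted p 0.0017). The coating differences were -0.06 in Std medium and -0.19 in 2i (adjusted p 0.888 and 0.614). Vasp, which speeds filament elongation, was at 43.1 and 46.4, 66.7 and 60.4, 64.0 and 51.2, and 82.5 and 77.2 FPKM. Within each coating its sum was higher in 2i than in Std. Its rises of 0.50 and 0.47 (SE 0.13 each, adjusted p 0.0467 and 0.0477) were lost without 6 and 7 of the 8 libraries. The Vasp sum includes a non-coding transcript, at 8.64 and 14.9, 24.8 and 30.1, 12.6 and 0, and 19.4 and 19.2 FPKM in the same order. The coding transcript with the highest level was at 28.1 and 26.5, 34.2 and 30.3, 51.4 and 39.7, and 63.05 and 46.5. On LN511 the media overlapped for this coding transcript. The Vasp transcripts were not tested apart. Cfl1 (cofilin-1, which severs filaments) and Pfn1 (profilin-1, which feeds monomers to growing ends) had group means of 707 to 946 FPKM, and no difference of theirs exceeded 0.31 or passed.

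The membrane linkers differed among themselves. Ezr, ezrin, was at 125 and 111 FPKM on gelatin with Std medium, 92.4 and 102 in gelatin 2i, 120 and 129 in LN511 Std, and 90.9 and 83.8 in LN511 2i. Std libraries were above those of 2i. It fell in 2i on LN511 by 0.51 (SE 0.10, adjusted p 0.0172), and the difference of -0.28 on gelatin did not pass (adjusted p 0.12). The fall was lost without either LN511 Std library or LN511 2i replicate 2 (adjusted p up to 0.0926). Msn, moesin, was at 40.0 and 38.3, 49.5 and 51.7, 42.6 and 43.0, and 42.8 and 39.8. Gelatin 2i was highest. Msn rose in 2i on gelatin by 0.36 (SE 0.10, adjusted p 0.0491), a call that was lost without any 1 of the 8 libraries (adjusted p 0.0508 to 0.179). Rdx, radixin, had group means of 46.3 to 54.3 FPKM and passed in no comparison.

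Vim and Lmna rose in 2i on both coatings. Vim, vimentin of the intermediate filaments, was at 45.1 and 41.9 FPKM on gelatin with Std medium, 68.1 and 67.7 in gelatin 2i, 45.4 and 47.1 in LN511 Std, and 64.2 and 70.1 in LN511 2i. The libraries of 2i lay above those of Std, and in 2i the coatings overlapped. It rose by 0.63 on gelatin (SE 0.09, adjusted p 0.00748) and by 0.53 on LN511 (SE 0.09, adjusted p 0.0125), and the second call was lost without either LN511 Std library (adjusted p up to 0.0646). Lmna (chr3:88481148-88509932), whose lamins A and C line the inner nuclear membrane, was at 12.4 and 13.0, 23.0 and 26.5, 22.6 and 18.9, and 44.3 and 49.4. LN511 2i was highest and gelatin Std lowest, without overlap. Lmna rose in 2i by 0.91 on gelatin (SE 0.15, adjusted p 0.00976) and by 1.14 on LN511 (SE 0.15, adjusted p 0.00344), and the first call was lost without replicate 1 of gelatin Std or replicate 2 of gelatin 2i (adjusted p up to 0.0611). On LN511 it was higher than on gelatin by 0.66 in Std medium and by 0.89 in 2i, and neither passed (adjusted p 0.0867 and 0.106). The transcript of 574 codons, that of lamin C, held most of its level: 9.79 and 10.6 FPKM on gelatin with Std medium, 19.2 and 22.1 in gelatin 2i, 16.7 and 16.4 in LN511 Std, and 31.6 and 39.7 in LN511 2i. The transcript of 665 codons, that of lamin A, was at 2.57 and 2.47, at 3.79 and 0, at 5.90 and 2.45, and at 12.7 and 9.68, highest in LN511 2i. A further transcript was at 4.41 in 1 gelatin 2i library and listed at 0 in the rest.

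The promoters were searched for the CArG box, the site of serum response factor, since many actin genes are known targets of that factor. The RefSeq promoter table (GRCm38.p6, 250 bases before to 50 after a start) held 31 of the 37 genes. A CArG box on either strand lay in promoters of 6 of the 31 (19.4%), against 1.81% of 27025 genes in the table. The letters GGAATG, the core of the TEAD motif, lay on either strand in promoters of 7 (22.6%), against 16.6% of genes. Vcl held both motifs, and in its window below no TEAD core overlaps the box. Windows of the 6 boxes follow, with the box in capitals. The Myl6 and Fhl1 windows belong to 1 of 2 listed starts, and these windows and that of Fermt2 lie inside the span of the gene.
Actg1: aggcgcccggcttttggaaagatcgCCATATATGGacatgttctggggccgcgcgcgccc
Fhl1: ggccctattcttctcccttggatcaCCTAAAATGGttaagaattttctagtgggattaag
Vcl: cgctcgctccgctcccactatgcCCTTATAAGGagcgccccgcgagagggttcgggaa
Myl9: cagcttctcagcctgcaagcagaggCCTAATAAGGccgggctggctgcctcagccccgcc
Fermt2: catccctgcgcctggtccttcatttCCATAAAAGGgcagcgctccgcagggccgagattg
Myl6: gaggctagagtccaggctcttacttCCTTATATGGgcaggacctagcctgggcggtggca
In order they are chr11:120348551-120348610 (minus), chrX:56779556-56779615 (plus), chr14:20929148-20929205 (plus), chr2:156775278-156775337 (plus), chr14:45530235-45530294 (minus) and chr10:128493025-128493084 (minus). The genes with a box did not share 1 pattern. Actg1, Fhl1, Vcl and Myl9 had their highest mean in LN511 Std, and Actg1 and Fhl1 passed there against gelatin. Fermt2 and Myl6 had theirs in LN511 2i and rose in 2i on both coatings. A match describes letters in these windows and is not a measured site.

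Other genes of the same machinery were read from lists of textbook members, also chosen with earlier results of these data known. Of 37 tested actin assembly and crosslinking genes, 2i raised 12 and lowered 1 on gelatin, and raised 8 and lowered 2 on LN511. Of all tested genes 8.2% rose and 7.2% fell on gelatin, and 8.58% and 9.95% on LN511. The list included Add1 (adducin, which caps filaments at the membrane), which rose by 1.57 and 2.21 (adjusted p 0.0111 and 0.0027), and Coro1b (coronin, an Arp2/3 partner), which rose by 1.42 on gelatin (adjusted p 0.00318). Gsn, the severing protein gelsolin, fell by 1.52 on LN511 (adjusted p 0.021). In Std medium 3 rose on LN511 and 0 fell, where 1.54% of all genes rose, among them Tmsb4x, thymosin beta-4, by 0.90 (adjusted p 0.019) and the Arp2/3 subunit Arpc5 by 0.70 (adjusted p 0.0208).

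Of 25 tested other focal adhesion genes, 2i raised 3 and lowered 2 on gelatin, it raised 2 and lowered 1 on LN511, and 1 rose with LN511 in Std medium. Of all tested genes 15.4% and 18.5% passed between media and 2.1% between coatings, so these counts say nothing particular of the list. The Src family kinase Yes1 rose in 2i by 1.79 on gelatin and 2.19 on LN511 (adjusted p 0.000707 and 0.000277), to means of 47.1 and 49.0 FPKM. The LIM protein Csrp1 rose on LN511 in Std medium by 1.98 (adjusted p 0.00726) and in 2i on gelatin by 1.20 (adjusted p 0.00809). Pdlim7, a LIM protein of actin fibres, fell in 2i on LN511 by 0.81 (adjusted p 0.0208).

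Of 6 tested membrane linker partners 1 was higher and 1 lower in 2i on each coating, and of 8 tested lamina genes likewise 1 and 1, numbers too small to read against the 15.4% and 18.5% of all genes. Slc9a3r2, a scaffold that binds ezrin, rose in 2i by 1.18 and 1.44 (adjusted p 0.0161 and 0.00711), and Podxl, a surface sialomucin linked to it, fell by 1.75 and 1.09 (adjusted p 0.00519 and 0.0229). Sun1, which ties lamins to the cytoskeleton, rose by 1.36 and 1.65 (adjusted p 0.0129 and 0.0057), and the lamin B receptor Lbr fell by 0.45 and 0.94 (adjusted p 0.0312 and 0.00191). Neither list had a gene that passed between coatings in Std medium. In 2i medium 0 genes of these 4 lists passed between coatings in limma, with 13 of 76 at an unadjusted p under 0.05, against 11.9% of all genes.

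Markers of other cell types moved with some of these groups. The summed level of 7 simple epithelium markers, led by Sfn, Krt8, Krt18, Cldn4 and Cldn6, was 544 to 555 FPKM in LN511 Std and 135 to 182 in the other groups. Of 6 tested, 5 rose on LN511 in Std medium and 6 fell in 2i on LN511. Of all tested genes 1.54% rose and 9.95% fell in these comparisons. Zyx, Flna, Actn4, Lasp1, Fhl1 and Actg1 passed in both, in the same directions. Primitive endoderm markers summed to 4.33 to 4.54 in LN511 Std and 0.868 to 2.65 elsewhere, with Afp at 0 in every library. Of these 8 markers only Dab2 was above the filter, and it passed in no comparison. Trophoblast markers summed to 32.7 to 33.4 in gelatin 2i, 24.1 to 32.1 in LN511 Std and 17.0 to 21.5 in the other groups, and Elf5 was at 0 in 7 libraries. Single markers differed in direction. Tfap2c was at 6.51 and 9.48 FPKM in gelatin Std and 18.0 and 20.5 in gelatin 2i. Ascl2 was at 6.91 and 8.12, and at 4.09 and 3.84, in these groups. Of 7 tested, 2 rose in 2i on gelatin, 2 fell in 2i on LN511 and 1 rose on LN511 in Std medium. Of all tested genes 8.2%, 9.95% and 1.54% did so. Fibroblast markers summed to 4.96 to 6.12 in gelatin Std, 3.86 to 4.59 in LN511 Std and 1.78 to 2.43 in 2i. Of the 10, 8 were below the filter and Lum and Postn were at 0 in every library. The 2 tested markers went opposite ways in 2i on both coatings. On gelatin Thy1 was at 4.45 and 3.54 FPKM in Std medium and at 0.485 and 0.228 in 2i. Pdgfrb was at 0 and 0 there in Std medium and at 1.38 and 1.73 in 2i. The part of such cells in the results was not tested.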

How the data were processed

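RNA-seq libraries of 8 cultures were analysed. The authors deposited FPKM per gene and per transcript, 1 column per library, and 0 sample columns were left out. The submitters' processing notes name TopHat2 2.1.1, Cufflinks 2.1.1 and the build mm10, with roles, annotation and strandedness not given in the sources used here, so reads of genes that overlap on opposite strands may not be told apart. RefSeq transcript rows were summed per gene (31786 of 32688 matched a symbol; 21844 assembled rows were left out), because the gene table listed at 0 47.3% of values whose transcript sum was 1 FPKM or more. Genes with 1 FPKM or more in at least 2 libraries were kept (11244). Set aside were 836 with 1 replicate at 0 and the other at 5 or more, and 130 listed at 0 in a whole group while a second group averaged 5 or more. limma 3.58.1 in R 4.3.3 (eBayes with trend) was fitted to log2(FPKM + 1) of 10278 genes in all 8 libraries, with 1 mean per group, and checked on simulated data. The members, their subgroups and the other gene lists were chosen with earlier results of these data known. Results of 1 of these lists are not reported here. A member is described by library where it passed a test, was set aside or was below the filter, some others were added after their values were seen, and each other list names at most 2 genes that passed per comparison, by size of change, with 5 FPKM or more in the higher group. Alternatives changed the pseudocount, filter, treatment of zeros, scaling, source table, libraries and block. Depth was read from the smallest FPKM steps, since the files give no counts.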

Additional observations from a re-analysis of the deposited data

Results flagged for a closer look

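The response of Flna to 2i medium differed between the coatings by the test of that difference. It was -1.07 on the log2(FPKM + 1) scale, LN511 minus gelatin (SE 0.12, limma adjusted p 0.0422). Between media Flna, the filamin A gene, differed by 0.21 on gelatin (adjusted p 0.165) and fell by 0.86 in 2i on LN511 (adjusted p 0.00147), where the libraries of the media did not overlap. Without any 1 of the 8 libraries the interaction missed the threshold (adjusted p 0.0694 to 0.195).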

How the results depend on the processing

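Of 584 refits of single member calls, 389 kept the direction and the threshold, 195 kept the direction and missed the threshold, and 0 reversed. Of 39 calls, 12 passed in each of the 15 alternatives in which they could be fitted: Arpc1b, Fermt2, Fhl1, Myl12b and Vim for the medium on gelatin, and Arpc1b, Bcar1, Fermt2, Flna, Lmna, Myl12b and Zyx for the medium on LN511. The count of members that passed for the medium on gelatin (14) was 9 with only the libraries compared, 0 in the deposited gene table and 5 to 12 without 1 library. For the medium on LN511 (16) it was 9, 0 and 8 to 13, and for the coating in Std medium (8) it was 0, 0 and 0 to 9. The gene table could test only 3 members. For the coating in 2i medium it was 0 in every alternative. For the interaction (1) it was 0 with quantile normalization, 0 with median centring, 0 in the gene table, and 0 to 0 without 1 library. A fit that leaves 1 library in a group assumes that it varies like the other groups. With the replicate number as a block the counts were 11 and 11 for the medium, 3 for the coating in Std medium and 0 for the interaction. Deviations of same-numbered libraries had correlations of -0.02 to 0.02. They show no broad shift shared by number, and cannot tell whether same-numbered cultures were handled together. Over all genes, the 216 that passed for the coating in Std medium (158 higher, 58 lower) were 178 with median centring (112 and 66), 80 with the block, 6 with only the libraries compared, 135 of 2784 in the gene table and 9 to 199 without 1 library. The 1583 and 1905 for the medium became 998 and 962 with only the libraries compared, 295 and 326 in the gene table, and at least 648 and 861 without 1 library. The 2 for the coating in 2i medium became 0 to 54 and the 19 for the interaction 0 to 65 over the alternatives, and the split of the latter (5 higher, 14 lower) was 12 and 13 with median centring. Values near 1 step of FPKM, such as those of Cav1 and Actg2, are at the limit of the depth.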
